A study of Mus musculus with 3 samples.

Results

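Chemokines are small secreted proteins that guide cell movement, and their receptors are G protein-coupled receptors on the responding cells. Ligands are named CC, CXC, C or CX3C after the spacing of their first cysteines, while atypical receptors bind chemokines without the usual G protein signal and act largely as scavengers. In bone marrow, the ligand encoded by Cxcl12 is made mainly by stromal cells and holds haematopoietic stem cells in their niche through the receptor encoded by Cxcr4. The genes described here were chosen by symbol in the platform annotation, namely the numbered CC, CXC, C and CX3C ligands and receptors and the atypical receptors. Only probe sets that name a single gene were used. This gave 55 of 19938 measured genes, of which 21 encode receptors and 34 encode ligands.

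The cells were haematopoietic stem cells of bone marrow from wild-type C57Bl/6 mice aged 6 to 10 weeks, sorted as positive for CD150, c-Kit and Sca-1 and lacking CD41, CD48 and lineage markers, the KLS SLAM gate. Their amplified RNA was hybridised to 3 arrays, called arrays 1, 2 and 3 after the replicate numbers. The series as analysed here has this group alone, so the data describe levels and their spread between arrays, with no contrast between genotypes or treatments. Whether each array came from separate mice, and how many mice were pooled, is not given in the sources used here, so the spread may be partly technical.

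Levels are log2 of the deposited intensities. A gene was counted as above the background range when its level on every array was over the 95th percentile of 1227 sensory receptor genes (olfactory, taste and vomeronasal) that marrow is not known to use. The limits of arrays 1, 2 and 3 were 6.30, 5.98 and 5.77 log2. A level near it does not establish presence or absence of the transcript, and levels of different genes are not ranked, because probe sets differ in affinity. All 11 measured genes of a stem cell marker list were above the range, among them Kit at 10.01 ± 0.23 log2 (SD, n = 3) and Slamf1, which encodes CD150, at 6.51 ± 0.13. Both belong to the sort gate and only check the labels. Itga2b, which encodes CD41, a protein the gate excludes, was also above the range, at 6.37 ± 0.14. Marker lists of other cells were also measured, where 36.8% of all 19938 genes were above the range. Above it were 10 of 14 granulocyte genes, 3 of 13 monocyte, macrophage and dendritic cell genes and 6 of 9 megakaryocyte genes. So were 1 of 13 T and NK cell genes, 1 of 9 B cell genes and 1 of 8 basophil, mast cell and eosinophil genes. The stromal and endothelial list had 4 of 12 and the erythroid list 2 of 6. Among the granulocyte genes S100a8 and S100a9 were far above the limits, at 12.08 ± 0.31 and 12.37 ± 0.38. Elane, Ctsg, Mmp9 and Fcnb were not above the range.

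Few chemokine system genes gave signal above the background range, and Cxcr4 was the one member far above it. Of the 55 genes 14 passed on all 3 arrays, or 25.5%, beside 36.8% of all 19938 genes. By class, 4 of 21 receptor genes and 10 of 34 ligand genes passed. Counting genes above the limit on at least 2 arrays gave 21 of 55, beside 48.8% of all genes. The other 7 of these 21 passed on exactly 2 arrays, and another 6 genes passed on 1 array. The median over the 55 genes of the mean level was 5.76 log2, beside 5.96 over all genes and 4.25 over the sensory receptor genes. Most of the 14 were close to the limit, since 11 exceeded it by under 0.5 log2 on at least 1 array. In the reference annotation 7 of the 14 overlap another gene, whose signal was not separated here. With the 99th percentile of the sensory receptor genes as the limit, which 17.4% of all genes passed, 3 of the 55 remained: Cxcr4, Ccl4 and Ccl19.

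Cxcr4, the receptor for Cxcl12 that retains stem cells in marrow, was the receptor gene with clear signal. Its levels on arrays 1, 2 and 3 were 9.58, 10.77 and 10.47 log2, a mean of 10.27 ± 0.62 (SD, n = 3). Array 1 was the low one, and the highest and lowest arrays differed by 2.29-fold. Even on array 1 the level was 3.28 log2 over that array's limit, and 0 of the 1227 sensory receptor genes were higher on any array. No other member was above every sensory receptor gene on all arrays. The differences between arrays did not pass the test of variation (limma variance test, Benjamini-Hochberg adjusted p = 0.977). With 3 arrays that test could call only a very large spread, so the result does not show an even level. Cxcr4 is also carried by neutrophils and B cell progenitors in marrow. The granulocyte list was lowest on array 1 as well, with summed intensities of 10092, 17040 and 16271 on arrays 1, 2 and 3, and 12 of its 14 genes had their lowest value on array 1. The B cell list, with 466, 523 and 978, and the stem cell list, with 5626, 6781 and 6109, were lowest there too, as were the summed intensities of the monocyte, stromal, erythroid and partner lists. Of the 9 B cell genes, 4 were lowest on array 1 and 4 on array 3. The B cell sum on array 3 owed much to Vpreb1, at 5.81, 6.38 and 9.02 log2 on arrays 1, 2 and 3. The part of such cells in the Cxcr4 level was not tested. In bulk RNA of this kind, fewer cells of a type and less RNA per cell cannot be told apart.

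The promoter of Cxcr4 is shown because it belongs to the member with the clearest signal. It comes from RefSeq on GRCm38.p6, minus strand, chr1:128592250-128592549, and runs 5′ to 3′ from 250 bases before the annotated start to 50 after it. Capitals mark the motif of NRF-1, an activator of many CpG-rich promoters, and the TATA motif.

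Cxcr4: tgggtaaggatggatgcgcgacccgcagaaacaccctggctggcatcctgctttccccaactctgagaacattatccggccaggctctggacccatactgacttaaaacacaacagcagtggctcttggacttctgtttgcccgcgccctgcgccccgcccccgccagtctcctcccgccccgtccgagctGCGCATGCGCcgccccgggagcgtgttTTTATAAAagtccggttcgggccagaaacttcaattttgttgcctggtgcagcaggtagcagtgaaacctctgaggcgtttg

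The NRF-1 motif was searched on both strands as GCGC, any 2 bases and GCGC again, and its match began 59 bases before the start. It occurred in 1 of 45 promoter windows of the chemokine genes and in 6.23% of all 32851 windows of that length. The TATA motif searched was TATAAA on either strand. In the Cxcr4 window it occurred on both strands in overlapping positions, 30 and 32 bases before the start. It was found in 13 of the 45 windows and in 13.6% of all windows. These matches describe letters only, and no binding was measured.

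The other 3 receptor genes above the range were Ccr10, Ccr7 and Cx3cr1. Ccr10, the receptor for the epithelial chemokines CCL27 and CCL28, was at 6.59, 6.65 and 6.52 log2 on arrays 1, 2 and 3. Ccr7, which directs lymphocytes and dendritic cells to lymph nodes, was at 6.78, 6.47 and 6.13. Cx3cr1, the fractalkine receptor of monocytes and some progenitors, was at 6.40, 6.92 and 6.42. Their means were 6.59 ± 0.06, 6.46 ± 0.33 and 6.58 ± 0.29 (SD, n = 3). On the array where each was closest to the limit, they were 0.30, 0.36 and 0.11 log2 over it. None of the 3 passed the 99th percentile limit. Ccr10 overlaps Cntnap1 in that annotation, a neural cell adhesion gene, and Cx3cr1 overlaps a long non-coding RNA gene. For Cx3cr1, array 2 was the high one, as it was for the monocyte, macrophage and dendritic cell list, whose means were 6.04, 6.53 and 6.24 log2 and whose summed intensities were 1282, 2359 and 1594. In that list Lyz2, Cd68 and H2-Ab1 were above the range, and Itgam, Cd14, F13a1, Ms4a6c and Siglech missed it on array 1 alone. The other 5 of 13 genes, Csf1r, Adgre1, C1qa, C1qb and Itgax, were under the limit on every array, Csf1r at 5.38 ± 0.12. By array, 8 of the 13 genes were highest on array 2, 4 on array 3 and 1 on array 1. Ms4a6c, at 6.13, 8.29 and 7.32, was among the 8. Array 2 was also highest for 30 of the 55 members, for 7691 of all 19938 genes and for the mean of the stem cell list. The part of monocytes, macrophages and dendritic cells in the Cx3cr1 level was not tested.

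**Figure D1:**
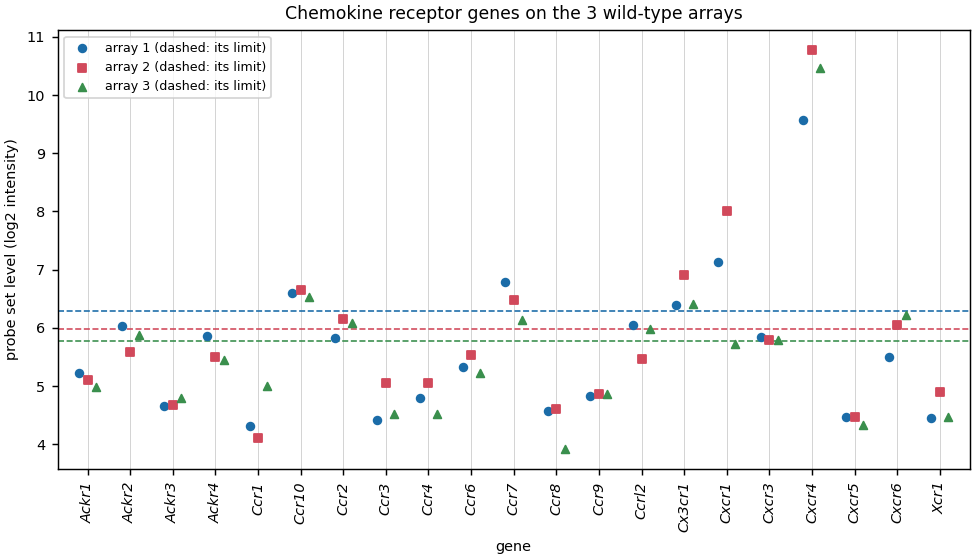
Log2 intensity of the 21 chemokine receptor genes (horizontal axis) on each of the 3 wild-type arrays, with a dashed line at each array's background limit (6.30, 5.98 and 5.77 log2). Cxcr4 lies between 9.58 and 10.77, at least 3.28 log2 over the limit, while Ccr10, Ccr7 and Cx3cr1 lie just above their limits and Cxcr1 spreads from 5.72 to 8.01.

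Receptor genes on both sides of the limit were Cxcr1, Ccr2 and Cxcr6, each above it on 2 arrays. Cxcr1, a receptor of neutrophils for CXC ligands, was at 7.13, 8.01 and 5.72 log2 on arrays 1, 2 and 3, a 4.90-fold range with a mean of 6.96 ± 1.16 (SD, n = 3). It was over the 99th percentile limit on arrays 1 and 2 and 0.05 log2 under the 95th percentile limit on array 3. Without array 3 it would count as above the range. The granulocyte list also had its highest summed intensity on array 2, but its lowest on array 1. The mean log2 level of that list was instead highest on array 3, where Cxcr1 was lowest, at 8.71 beside 8.63 on array 2. Of its 14 genes, 7 were highest on array 3, 6 on array 2 and 1 on array 1. The part of granulocytes in the Cxcr1 level was not tested. The spread of Cxcr1 did not pass after adjustment over all genes (limma variance test, adjusted p = 0.894). Ccr2, the receptor that draws monocytes out of marrow, was at 5.83, 6.15 and 6.08, and Cxcr6, the receptor for CXCL16, was at 5.49, 6.05 and 6.22. Both missed the limit on array 1 alone, where the limit is highest, and would be above the range without that array. Cxcr6 overlaps Fyco1 in the reference annotation.

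The remaining 14 receptor genes were above the limit on 1 array or on none. Cxcr3, a receptor of activated T cells, was at 5.85, 5.80 and 5.79 log2 and exceeded the limit on array 3 alone. The atypical receptor genes Ackr2 and Ccrl2 also did so on array 3 alone, at 6.03, 5.58 and 5.88 and at 6.05, 5.46 and 5.98. The other atypical receptor genes were below the limit on every array. Ackr3, whose product is the second receptor for CXCL12, was at 4.71 ± 0.08 (SD, n = 3), and between 287 and 504 of the 1227 sensory receptor genes were higher than it. Ackr1 and Ackr4 were at 5.10 ± 0.12 and 5.60 ± 0.22. Among the receptors of leukocyte traffic, Ccr1 at 4.47 ± 0.47, Ccr3 at 4.66 ± 0.34, Ccr4 at 4.78 ± 0.27 and Ccr6 at 5.36 ± 0.16 were below the limit on every array. So were Ccr8 at 4.37 ± 0.39, Ccr9 at 4.85 ± 0.03, Cxcr5 at 4.42 ± 0.08 and Xcr1 at 4.61 ± 0.25. Ccr9 homes cells to gut and thymus, and Cxcr5 homes B cells to follicles.

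Of 19 CC ligand genes 6, or 31.6%, were above the range, of 13 CXC ligand genes 3, or 23.1%, and of the other 2, the C and CX3C ligand genes, 1. These shares were not tested against each other or against the 36.8% of all genes. Ccl4, which encodes the macrophage inflammatory protein MIP-1 beta, was at 7.28, 7.38 and 7.88 log2 on arrays 1, 2 and 3, a mean of 7.51 ± 0.32 (SD, n = 3). It was at least 0.99 log2 over the limit, and 7, 3 and 1 of the 1227 sensory receptor genes were higher on the 3 arrays. Ccl19, a ligand of CCR7 in lymphoid tissue, averaged 7.57 ± 0.32 over 5 probe sets, at 7.30, 7.48 and 7.93. The 5 probe sets were alike, with means from 7.55 to 7.59, and 2 of them held identical values. The gene has near-identical copies in the mouse genome, so its level is uncertain.

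Ccl5 and Ccl6 lie beside Ccl3, Ccl4 and Ccl9 in the reference annotation. Of these 5 neighbours 3 were above the range, beside 36.8% of all genes. All 5 were above the limit on at least 2 arrays, beside 48.8% of all genes. Ccl5, a chemoattractant of T cells and monocytes, was at 6.65, 7.04 and 6.76 log2. Ccl6, expressed in myeloid cells of the mouse, was at 6.48, 6.67 and 6.63. The means were 6.82 ± 0.20 and 6.59 ± 0.10 (SD, n = 3), with all 3 arrays above the limit for both genes. Ccl5 is typical of T and NK cells. In their marker list Nkg7 was above the range, Cd3e and Prf1 were above the limit on 2 arrays and Thy1 on 1, and the other 9 of 13 genes, Cd4, Cd8a and Ncr1 among them, were below it on every array. The summed intensities of that list were 580, 576 and 653 on arrays 1, 2 and 3, and the part of such cells in the Ccl5 level was not tested.

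Ccl3 and Ccl9 missed the limit on array 2 alone. Ccl3, which encodes MIP-1 alpha, an inhibitor of stem cell proliferation in culture, was at 7.14, 5.31 and 6.37 log2 on arrays 1, 2 and 3. The mean was 6.27 ± 0.92 (SD, n = 3), and arrays 1 and 2 differed by 3.54-fold. Ccl9 was at 6.66, 5.64 and 6.41, a 2.03-fold range in the same order of arrays. Ccl4 overlaps Ccl3 in the reference annotation and had its lowest value on array 1, not array 2. Without array 2 both Ccl3 and Ccl9 would be above the range. Neither spread passed after adjustment (limma variance test, adjusted p = 0.894 for Ccl3 and 0.973 for Ccl9).

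Ccl1 and Ccl11 belong to the other CC ligand neighbourhood, with Ccl2, Ccl7, Ccl8 and Ccl12. They were the 2 of its 6 genes above the range, beside 36.8% of all genes. Ccl1, a T cell product that binds CCR8, was at 6.91, 6.57 and 6.03 log2, and Ccl11, the eosinophil attractant eotaxin, at 6.86, 6.08 and 5.90. Both were highest on array 1 and lowest on array 3, and Ccl11 exceeded its limit by 0.10 log2 on array 2. The limits themselves had that order of arrays. Of the 1227 sensory receptor genes 609 were highest on array 1, and 752 were lowest on array 3. The receptor genes for these 2 ligands, Ccr8 and Ccr3, were below the limit on every array. The eosinophil gene Prg2 was likewise highest on array 1, at 8.08, 6.32 and 5.96, while Epx, of the same granules, was below the limit on every array at 5.57 ± 0.18. Prg2 was the only 1 of 8 genes of the basophil, mast cell and eosinophil list above the range. Of these 8 genes, 2 were highest on array 1, 3 on array 2 and 3 on array 3. The part of eosinophils in the Ccl11 level was not tested.

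Among CXC ligand genes, Cxcl1, Cxcl12 and Cxcl17 were above the range. Cxcl12 was at 6.48, 6.62 and 6.02 log2 on arrays 1, 2 and 3, a mean of 6.37 ± 0.32 (SD, n = 3) and 0.19 over the limit at its closest. Cxcl12 marks marrow stroma. In the stromal and endothelial list 4 of 12 genes were above the range, Col1a1, Col1a2, Stab2 and Emcn, beside 36.8% of all genes. Stab2 was only 0.02 log2 over the limit on array 1. The stromal niche genes Lepr and Kitl were below the limit on every array, Kitl at 3.57 ± 0.25. The part of stromal cells in the Cxcl12 level was not tested. Cxcl17, a mucosal chemokine, was at 6.60, 6.46 and 6.54, and it overlaps a long non-coding RNA gene. Xcl1, which encodes the C ligand lymphotactin of T and NK cells, was at 6.31, 6.25 and 6.26, only 0.01 over the limit of array 1. It was not above it when olfactory receptor genes alone set the limit.

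Cxcl1, a neutrophil attractant, was at 6.71, 6.73 and 6.44 log2, above the limit on all arrays. Its neighbours with like functions differed: Cxcl2 was at 5.70, 5.98 and 5.60, level with the limit of array 2 and below the others, and Cxcl3 at 5.33 ± 0.09 (SD, n = 3) was below on every array. The 3 promoters share a motif of NF-kB, the factor that drives many inflammatory chemokine genes. Windows of 30 bases around it are shown so that these neighbours can be compared with the other chemokine genes that hold the motif. Each is from RefSeq on GRCm38.p6, 5′ to 3′ on the strand of the gene, with the match in capitals.

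Cxcl1: cctgtactccGGGAATTTCCctggcccgga

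Cxcl2: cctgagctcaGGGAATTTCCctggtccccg

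Cxcl3: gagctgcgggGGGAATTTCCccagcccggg

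Ccl20: aatcaatgggGGAAAACCCCgggtgagaac

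Ccl9: tttgaactttGGAAAGCCCCaagtcacctt

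Ccr3: ttccttaagaGGAAATTCCCacattgtttt

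The windows lie at chr5:90891164-90891193 for Cxcl1, chr5:90903792-90903821 for Cxcl2, chr5:90786018-90786047 for Cxcl3, chr1:83116676-83116705 for Ccl20 and chr9:124021782-124021811 for Ccr3, all on the plus strand, and at chr11:83578652-83578681 on the minus strand for Ccl9. The motif was searched on both strands as GGG and TTTCC with any 2 bases between, and the matches of Ccl20, Ccl9 and Ccr3 are on the strand opposite the gene. Cxcl1 and Cxcl2 each hold a second, nearby match that is not shown. The motif was found in 6 of 45 chemokine gene windows and in 1.63% of all 32851 windows. Among the 6 genes with it, Cxcl1 alone was above the background range on all 3 arrays, Ccl9 was on 2 arrays, Ccl20 and Cxcl2 on 1, and Cxcl3 and Ccr3 on none.

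**Figure D2:**
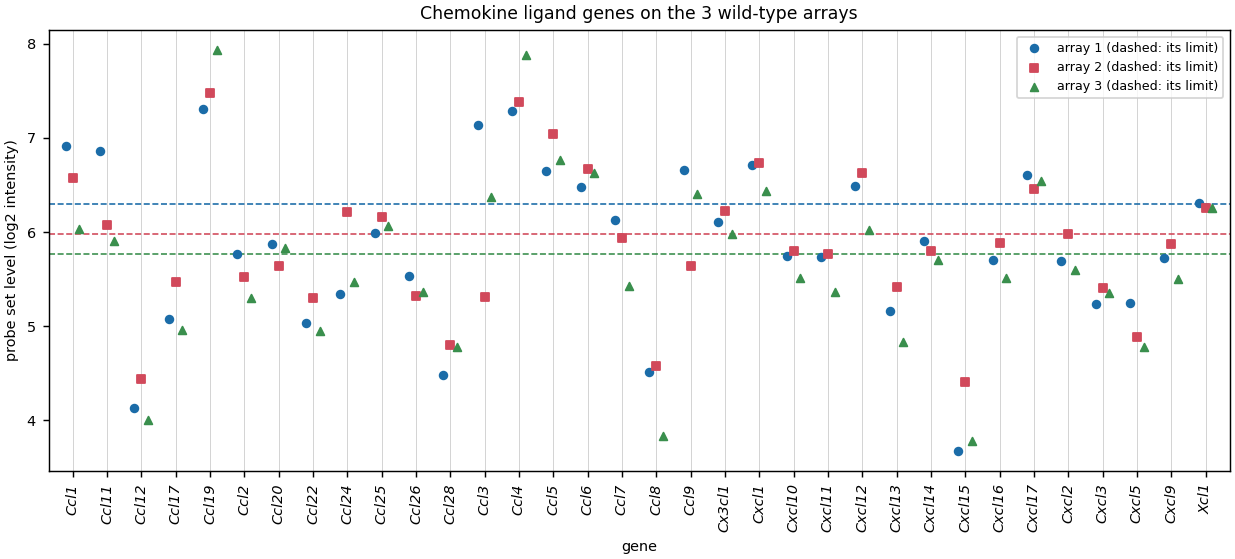
Log2 intensity of the 34 chemokine ligand genes (horizontal axis) on each of the 3 wild-type arrays, with a dashed line at each array's background limit. Ccl4 and Ccl19 lie between 7.28 and 7.93 on all arrays, while Ccl3 is at 7.14 on array 1 and at 5.31 on array 2.

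Ligand genes above the limit on some arrays also included Ccl25 and Cx3cl1, which missed it on array 1 alone. Cx3cl1, the gene of fractalkine, was at 6.11, 6.22 and 5.98 log2. Ccl25, the CCR9 ligand of thymus and gut, averaged 5.99, 6.16 and 6.07 over 2 probe sets that disagreed. One was below the limit on every array at 5.67 ± 0.29 (SD, n = 3), and the other, at 6.48 ± 0.47, was above it on arrays 2 and 3. Ccl20, at 5.87, 5.64 and 5.83, was above it on array 3 alone, and Ccl24, at 5.34, 6.21 and 5.47, on array 2 alone, as was Cxcl2. The other 17 ligand genes were below the limit on every array, with means from 3.96 for Cxcl15 to 5.83 for Ccl7. They included the monocyte attractants Ccl2, Ccl7, Ccl8 and Ccl12, the interferon-induced ligands Cxcl9, Cxcl10 and Cxcl11, and the B cell attractant Cxcl13. The rest of them were Ccl17, Ccl22, Ccl26, Ccl28, Cxcl3, Cxcl5, Cxcl14 and Cxcl16.

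Ligand and receptor genes were also set side by side in known pairs. Of 26 pairs with both genes measured, both were above it in 2, Cxcr4 with Cxcl12 and Ccr7 with Ccl19. In 2 pairs the receptor alone passed, Cx3cr1 without Cx3cl1 and Ccr10 without Ccl28, which was at 4.69 ± 0.18 log2 (SD, n = 3). In 6 pairs the ligand alone passed, and in 16 neither did. Pairs share genes, and 19.0% of receptor genes and 29.4% of ligand genes passed singly, so these counts are a description and nothing particular to pairs is read from them.

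No chemokine or receptor gene was called as varying between the arrays beyond the general spread at its level. With 3 arrays and adjustment over all genes, only a very large spread could be called. Steady levels are therefore not shown. The limma variance test called 0 of the 55 genes after Benjamini-Hochberg adjustment, and 0 of all 19938 genes, or 0.0%. At an unadjusted p under 0.05, 2 of the 55 passed, Ccl3 and Cxcr1, beside 1017 of all genes, or 5.1%. The trend was fitted to these same genes, so a share of all genes near that threshold follows from the fit. After them the smallest p-values belonged to Ccl9, Ccl24 and Ccl11, with adjusted p = 0.973 for each by that limma test. Their SDs were 0.53, 0.47 and 0.51 log2. The median SD of the 55 genes was 0.23 log2, beside 0.22 for all genes. The gene with the smallest SD was Ccr9 at 0.03, a gene below the limit. Of the 55 genes 29 had their lowest value on array 3, as did 752 of the 1227 sensory receptor genes and 7394 of all 19938 genes.

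**Figure D3:**
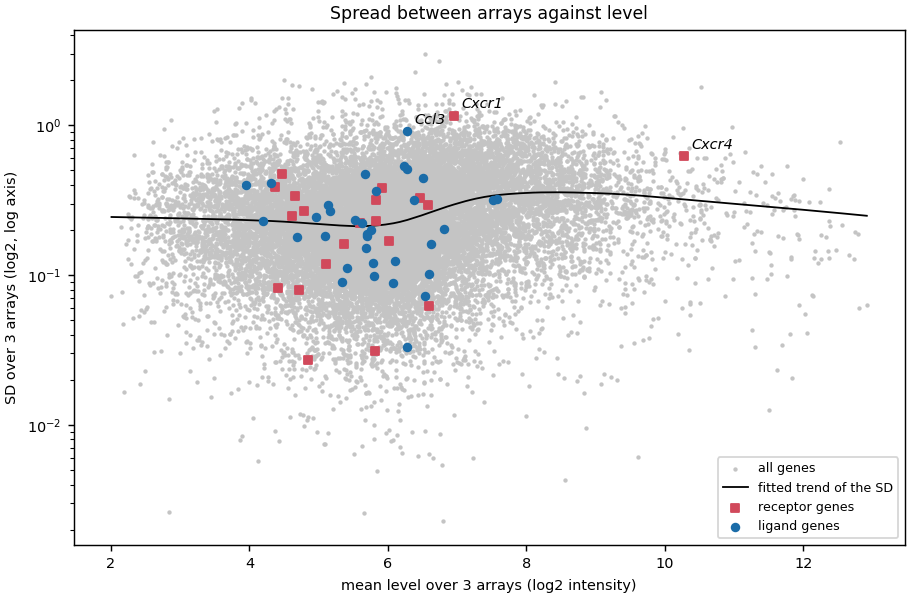
SD over the 3 arrays (log2, logarithmic axis) against mean log2 intensity for all 19938 genes in grey, receptor genes as red squares, ligand genes as blue circles and the fitted trend as a line. Cxcr1 (SD 1.16) and Ccl3 (SD 0.92) lie well above the trend, at 3.91 and 3.94 times it, but grey genes lie as high.

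**Figure D4:**
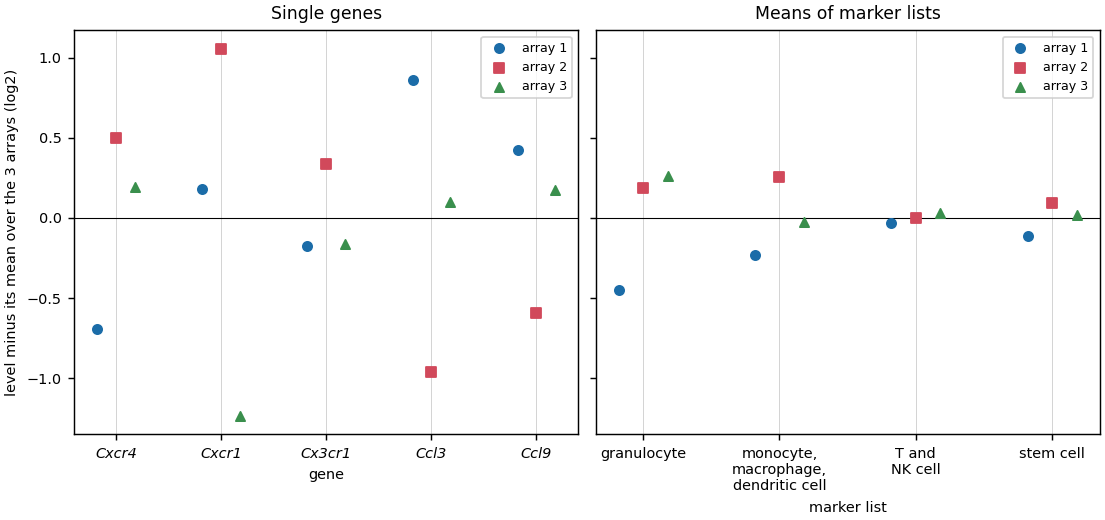
Level on each array minus the mean of the 3 arrays (log2) for 5 genes (left) and for the means of 4 marker lists (right). Array 1 is lowest for Cxcr4, for Cx3cr1 and for all 4 lists. Array 2 is highest for Cxcr4, Cxcr1 and Cx3cr1, for the monocyte, macrophage and dendritic cell list and for the stem cell list. The granulocyte list and the T and NK cell list are highest on array 3. Ccl3 and Ccl9 are both lowest on array 2.

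Most genes on a list of partners of chemokine receptors were above the background range. The list was chosen with earlier results of these data known, so nothing about chemokine signalling itself is read from the share. Of 44 measured partner genes 35, or 79.5%, were above the background range, beside 36.8% of all genes, and 23 passed the 99th percentile limit. The median of their mean levels was 7.52 log2. Of the G protein subunits 7 of 8 were above it. Gnai2 and Gnai3, the inhibitory subunits that chemokine receptors use in blood cells, were at 10.38, 9.79 and 10.01 and at 9.47, 9.75 and 9.45 on arrays 1, 2 and 3, while Gnai1 at 5.13 ± 0.37 (SD, n = 3) was below on every array. Of the migration effectors 14 of 15 were above it, including Rac2, a GTPase of blood cells that drives migration, at 8.25, 8.80 and 8.30, and its activator Dock2 at 8.51, 8.35 and 8.55. The exception was the kinase subunit gene Pik3r6, above the limit on array 3 alone at 5.83, 5.97 and 5.95.

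Receptor kinases, arrestins and RGS proteins end or limit receptor signals. Of the kinases and arrestins 3 of 5 were above the range, where 36.8% of all genes were, among them Grk6 at 6.53 ± 0.09 log2 (SD, n = 3). Grk3 and Grk5 missed it on array 2 alone, with Grk5 at 6.85, 5.05 and 6.07. Of the RGS genes, which speed up the shut-off of G proteins, 5 of 7 were above it. Rgs1 was at 8.77 ± 0.29 and Rgs2 at 8.14 ± 0.52, while Rgs3 and Rgs16 missed it on array 1 alone at 6.10 ± 0.22 and 6.21 ± 0.19. Among ligand processing and other binding genes 6 of 9 were above it. Dpp4, the peptidase that inactivates CXCL12, was at 6.94, 7.38 and 8.48, highest on array 3. Cd74, a receptor for MIF, was at 6.24, 6.01 and 5.42 and Ppbp, a platelet CXC ligand, at 6.44, 5.60 and 6.61, so neither passed on all arrays. Pf4, another platelet CXC ligand, was above the range at 6.82, 7.15 and 7.71. Pf4 and Ppbp lack the numbered symbol form, so they were not among the ligand genes counted above. Cmklr1, the chemerin receptor, was at 5.84 ± 0.03 and passed on array 3 alone.

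**Figure D5:**
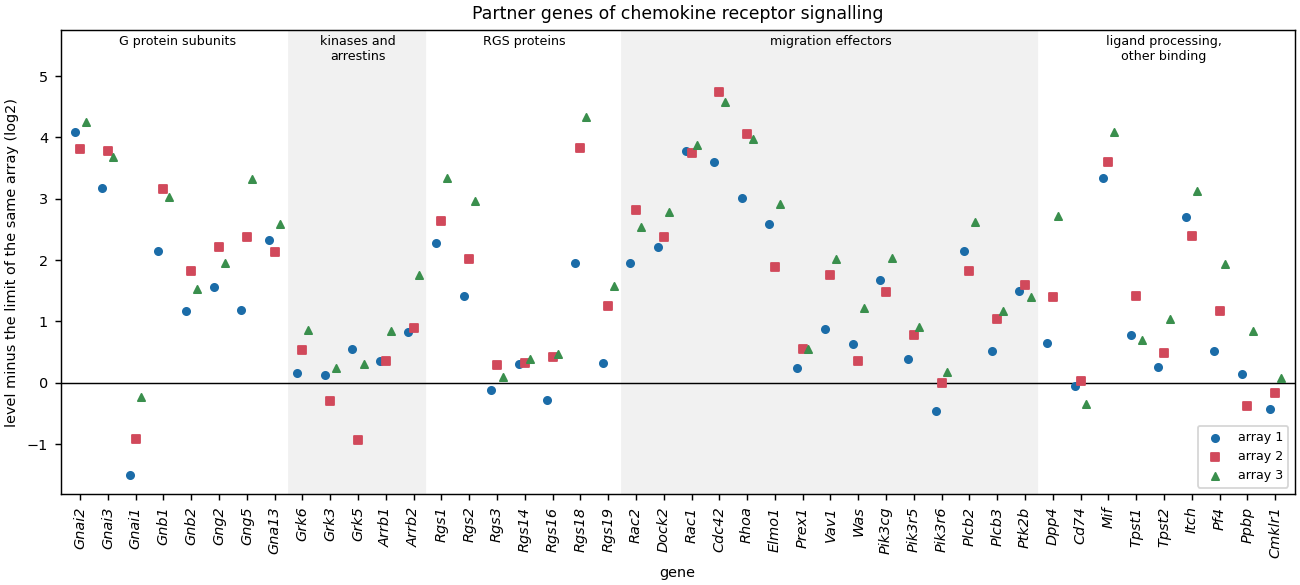
Level of each of the 44 partner genes on the 3 arrays minus the background limit of the same array (log2), grouped by role. Points above 0 exceed the limit: 35 genes have all 3 points above it, and Gnai1 has all 3 below.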

How the data were processed

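The deposited table holds 1 intensity per probe set and array on a linear scale, from 2.82 to 18384. Per the submitters' processing notes, the authors made it with Affymetrix Expression Console by the RMA method. No version and no list of the arrays normalised together is given in the sources used here. RMA puts arrays on a common distribution and so removes most array-wide brightness differences.

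Of 35554 probe sets, 21789 named 1 gene in the platform annotation, 1621 named several and 12144 were unlisted. Log2 values of a gene's probe sets were averaged. Another 7 probe sets that name several genes, a chemokine among them, were not used, and 1 receptor gene is not reported here. Members and lists were chosen with earlier results of these data known. Genes were named by a fixed rule: members above the limit on any array, receptors below it, the 5 members with the smallest p of variation, and the first 2 partner genes per role with those on the rarer side of the limit. The ligand genes below the limit on every array, Pf4 and marker genes were named after their values were seen.

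Variation was tested with limma 3.58.1 in R 4.3.3: each gene's variance over the 3 arrays (2 residual degrees of freedom) against the robust intensity trend, one-sided, adjusted by Benjamini-Hochberg over 19938 genes at 0.05. The script was tested on simulated data. The number of arrays limits precision, and with adjustment over 19938 genes only a very large spread could have been called. All 55 members were found in the GRCm38.p6 reference table, used for neighbouring and overlapping genes, and 41 had a promoter sequence.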

Additional observations from a re-analysis of the deposited data

How the results depend on the processing

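The count of receptor genes above the background range, 4, was 1 with the 99th percentile limit, which 17.4% of all genes passed, and 7 when 2 of the 3 arrays sufficed, as for 48.8% of all genes. The count of ligand genes, 10, was 2 with the 99th and 16 with the 90th percentile limit, which 50.6% of all genes passed. The count of partner genes, 35, was 23 with the 99th percentile limit. The remaining alternatives (olfactory receptor genes alone, brightest probe set, quantile normalization) left each count within 1.5 times. Leaving out each array in turn gave 4 to 6 receptor genes and 10 to 12 ligand genes and 35 to 38 partner genes. Of all genes 46.9% passed without array 1, 38.7% without array 2 and 37.0% without array 3. Quantile normalization changed no member's call, and 13 of the 14 genes above the range kept their highest and lowest arrays. The exception was Xcl1, whose arrays differ by 0.06 log2. The test of variation called 0 genes under all 9 alternatives. No paired analysis was possible because there is 1 group.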

Other observations

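The promoter windows of the chemokine genes held few CpG pairs. Over the 41 member genes with a window, taking the richest window of each, the median was 4 CpG in 300 bases, beside 7 over all 32851 windows. The 8 of these genes above the background range had a median of 8.5 and a range of 2 to 20, and the other 33 had a median of 4 and a range of 1 to 52. The ranges overlap, and the difference was not tested. Cxcr4 and Cxcl12, receptor and ligand of the niche, each had 20 CpG, and 24.8% of all windows had more. Ccl25 was the richest, with 52 in one window but 1 in its other window.

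Members lying side by side in the reference annotation formed 8 groups that hold 32 of the 55 genes. The receptor group of Ccr9, Cxcr6, Xcr1, Ccr1, Ccr3 and Ccr2 had 0 of 6 genes above the background range on all arrays. The ligands Cxcl9, Cxcl10 and Cxcl11 had 0 of 3 and the group of Cxcl1, Cxcl2, Cxcl3, Cxcl5 and Cxcl15 had 1 of 5. The group of Ccl3, Ccl4, Ccl5, Ccl6 and Ccl9 had 3 of 5 and that of Ccl1, Ccl2, Ccl7, Ccl8, Ccl11 and Ccl12 had 2 of 6. Ccl17, Ccl22 and Cx3cl1 had 0 of 3, Ccl24 and Ccl26 had 0 of 2, and Cx3cr1 and Ccr8 had 1 of 2. With 36.8% of all genes above the range and so few genes in a group, nothing is read from these counts.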
